A study of Mus musculus with 7 samples.

Results

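The heat shock proteins and their co-chaperones were examined in whole mouse embryos from a normal and a diabetic pregnancy. The members were all probe sets of the array whose annotated symbol is that of an Hspa, Hspb, Hspd, Hspe, Hsph or Hsp90 gene, a DNAJ gene of class A, B or C, a Cct subunit of the cytosolic chaperonin, or Hsf1 or Hsf2, with Hspa5 left out. The rule took 143 of the 22690 probe sets, for 68 genes on 19 chromosomes, and used no measured value. Hspbp1, an HSP70-binding protein, was taken in by the pattern of its symbol, and no probe set is annotated to Hsf1 or to Hsp90ab1 alone.

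Gene expression was measured at embryonic day 10.5 in FVB mice with 1 Affymetrix 430A 2.0 array per embryo, and the groups were 2 controls, 3 diabetes-exposed embryos free of neural tube defects (NTD) and 2 diabetes-exposed embryos with NTD. The exposed embryos were carried by a dam made diabetic with streptozotocin at 7 to 9 weeks of age, with blood glucose above 250 mg/dl, and the control embryos by an untreated dam. Each condition is 1 pregnancy, so diabetes and litter cannot be told apart and p-values measure only the spread between littermates. The number of arrays limits the precision, and the 21 ways to split 7 embryos into 2 and 5 set a floor of p = 0.048 for an exact permutation test (two-sided).

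Chaperones bind unfolded protein and help it to reach or regain its shape. HSP70 proteins do this in cycles of ATP binding that DNAJ proteins start and nucleotide exchange factors such as HSP110 end, HSP90 acts on kinases and receptors, small HSPs hold unfolded protein, and the chaperonins, HSP60 with HSP10 in mitochondria and CCT in the cytosol, fold protein inside a chamber. Under heat or other proteotoxic stress, heat shock factor HSF1 binds heat shock elements, which are alternating copies of a short GAA-type unit, and raises the inducible members, while many of the others are made at a high level in unstressed cells.

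Heat shock elements are shown here because heat shock factors are known to bind them. RefSeq promoters of GRCm38.p6, from 250 bases before the start site to 50 after it, were at hand for 57 of the 68 genes. An element of 3 alternating units, searched as GAANNTTCNNGAA and TTCNNGAANNTTC, each the reverse complement of the other so that both strands were read, lay in the promoters of 4 of the 57 genes (7.02%), beside 0.662% of all 27025 genes of the table. The 8-base pair of units, GAANNTTC or TTCNNGAA, which lies inside the longer motif and is its own reverse complement, was held by 17 of the 57 genes (29.8%) and by 17% of all genes. Capitals mark the matched units and their spacers, and distances are those of the first capital from a RefSeq start site.
Hspd1, minus strand of chr1:55088051-55088084, 144 bases before it: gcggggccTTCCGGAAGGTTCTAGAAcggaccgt
Hspe1, plus strand of the same interval, 89 bases before it: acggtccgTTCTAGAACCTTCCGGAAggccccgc
Dnajb6, plus strand of chr5:29735844-29735872, 46 bases before it: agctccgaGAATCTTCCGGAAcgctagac
Hsph1, minus strand of chr5:149636280-149636308, from 15 bases after it: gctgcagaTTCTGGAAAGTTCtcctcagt
Hspd1 and Hspe1 lie head to head, so that their 2 sequences are the strands of 1 shared site, where overlapping matches run together. Hspa1a, Hspa1b, Hspb1, Hspb8, Dnaja1 and Dnajb4 were among the 13 genes that held only the shorter motif. Dnajb1 was among those that held neither. Hsp90aa1, Hspa8, Hspa9, Dnajc5 and Hspb2 were among the genes with no promoter at hand. A match is a description of letters and not of binding.

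No chaperone probe set passed the test between control and diabetes-exposed embryos. Of the 143 probe sets, 109 of 58 genes were bright enough to be tested, which required that at least 2 arrays reach their own 40th percentile of signal. With limma on log2 of the signal and Benjamini-Hochberg adjustment over all 14554 tested probe sets, 0 of the 109 were called at an adjusted p under 0.05, beside 0.172% of all tested probe sets. The lowest adjusted p among them was 0.0839 (limma). At an unadjusted p under 0.05, 3 of the 109 (2.75%) were higher in exposed embryos, beside 7.63% of all tested probe sets, and 12 (11%) were lower, beside 8.52%. The groups did not overlap for 6 members that were higher in all exposed embryos than in both controls (5.5%, beside 11.4% of all) and for 15 that were lower (13.8%, beside 13.4%). The median log2 fold change over the 109 was -0.05 and that over all tested probe sets 0.00, and with 1 probe set per gene, the brightest, the members' median was 0.04.

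Intervals describe the size of the difference between these groups of littermates. They hold no spread between dams and are not adjusted for the number of members, so they do not bound an effect of diabetes. The 95% interval of the fold change lay inside 2-fold either way for 102 of the 109 members (93.6%, beside 86.4% of all tested probe sets) and inside 1.5-fold for 61 (56%, beside 46.3%). The 7 members whose interval reached past 2-fold belong to Hspa4, Hspa8, Hspa9, Dnajb6, Dnajc1, Dnajc5 and Cct4. Without control 1, where the exposed embryos alone give the spread, 1 member was higher (0.917%, beside 3.69% of all tested probe sets) and 6 were lower (5.5%, beside 3.61%) at an unadjusted p under 0.05. Without control 2, all exposed embryos lay above control 1 for 18 members (16.5%, beside 23.4% of all) and below it for 26 (23.9%, beside 21.2%). Counts of this kind can only stay or rise when an embryo is left out. Whole-embryo RNA cannot tell fewer cells of a type from less RNA per cell.

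**Figure D1:**
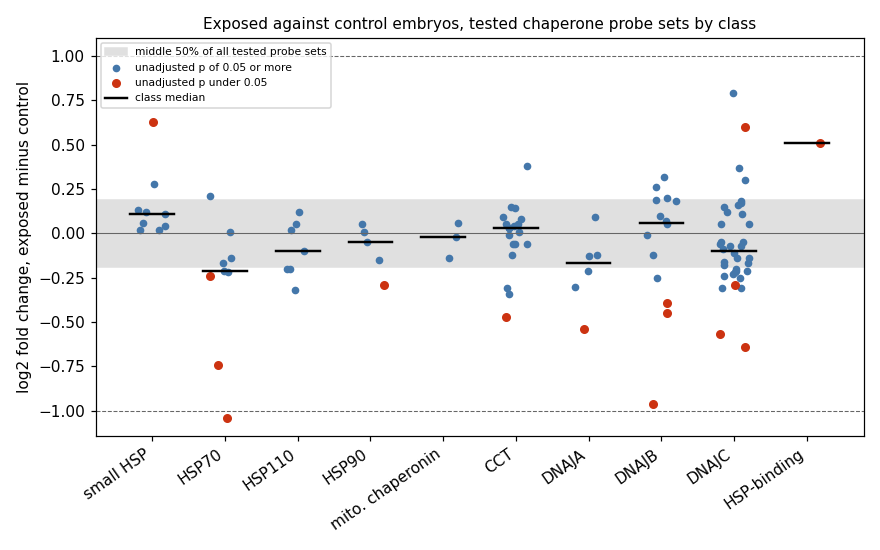
Log2 fold change of exposed minus control embryos on the vertical axis for the 109 tested chaperone probe sets, grouped by class on the horizontal axis. Each point is a probe set, red points have an unadjusted p under 0.05, black bars are class medians, the grey band holds the middle 50% of all 14554 tested probe sets and dashed lines mark 2-fold. Most points lie within or near the band, and 1 probe set, of Hspa9, lies beyond 2-fold.

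The embryos themselves differed in ways that touch these values. Exposed embryo 1 without NTD had a summed signal of yolk sac endoderm markers of 29514, against 1415 to 3598 in the other 6 embryos, with 13 of 14 markers on the array and Apoa1, Apoa4, Apob, Apom, Cubn, Fga and Fgb below the filter. The markers of the neural tube and neurons, 6 of 6 on the array, summed to 7916 and 7800.2 in the controls and to 6126 to 7123 in the exposed embryos. Those of primitive red blood cells, 7 of 8 on the array with Hba-a1 below the filter, summed to 52083 and 54392 in the controls and to 64507 to 83779 in the exposed embryos. Heart muscle markers, 9 of 9, summed to 12617 and 12136 and to 12963 to 15353, and somite markers, 5 of 5 with Myf5 below the filter, to 1371 and 1330.3 and to 1550 to 1877.5. These sums do not overlap between the groups except for the yolk sac markers, and their part in the chaperone values was not tested. Xist had a signal of 6074 to 7533 in 4 exposed embryos and 165 to 256 in exposed embryo 2 with NTD and the controls, and Y-linked Eif2s3y had 0.549 to 2.76 in the same 4 and 203 to 245 in the other 3. These sex-linked transcripts thus moved with the groups in 4 of 5 exposed embryos, and their part was not tested. None of the 68 member genes lies on X or Y. Positions of the other genes given here were not looked up. The ratio of 3' to 5' probe sets was 0.788 to 0.915 for Gapdh and 1.05 to 1.17 for Actb.

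Among the 109 tested chaperone probe sets, exposed embryo 1 without NTD had the lowest signal of the 7 embryos for 34 (31.2%), and over all tested probe sets for 20.7%. Control 2 was the lowest for 5 (4.59%), and over all tested probe sets for 12.2%. The members' median difference from the control mean on the log2 scale was -0.11, 0.04 and -0.12 in the 3 embryos without NTD in their order, and -0.02 and -0.08 in embryos 1 and 2 with NTD. Without exposed embryo 1 without NTD, the number of members called stayed at 0. At an unadjusted p under 0.05 (limma), 4 were then higher and 12 lower, against 3 and 12 with all 7 embryos. No share over all tested probe sets is at hand for that fit.

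**Figure D2:**
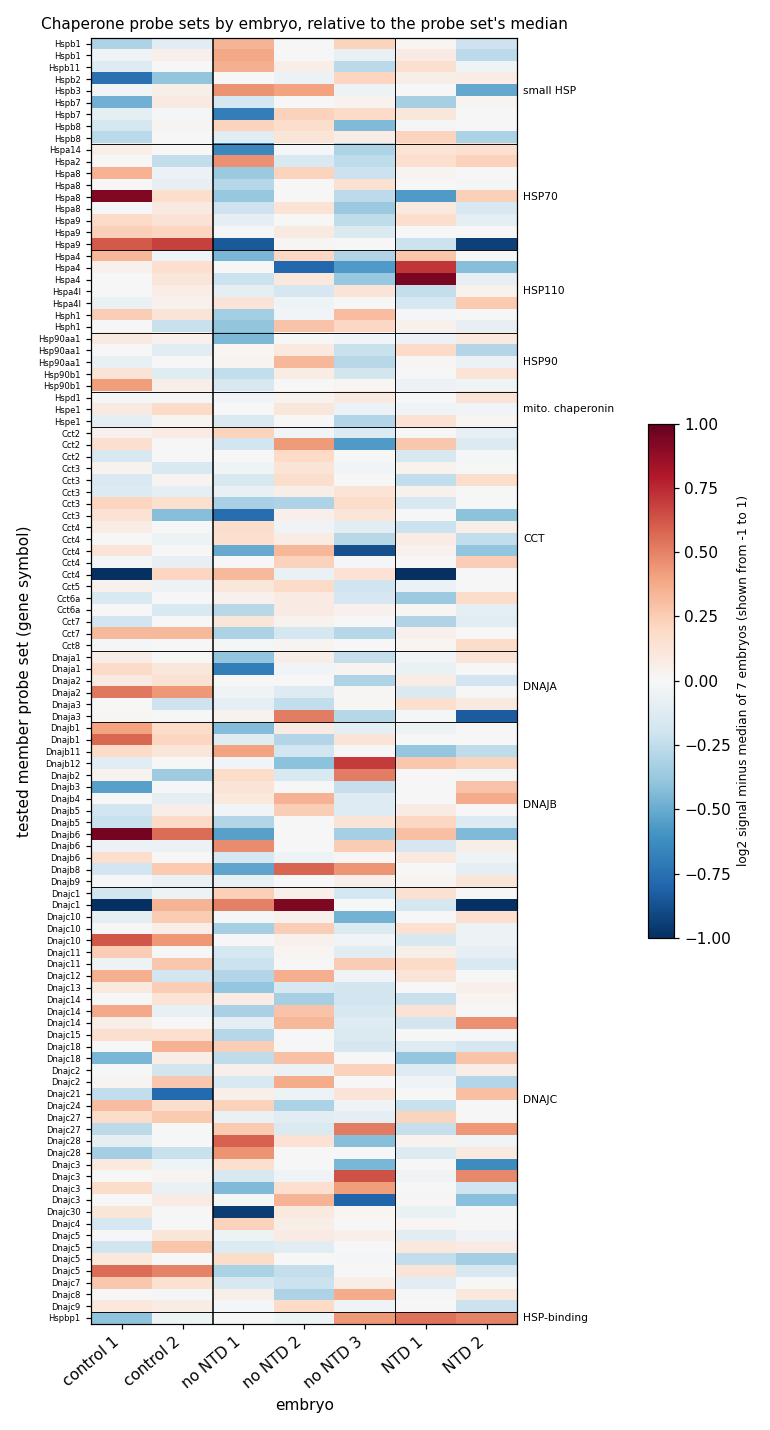
Log2 signal of each tested chaperone probe set (rows, by class and symbol) in each embryo (columns), relative to the median of the 7 embryos, with red above and blue below it and colours limited to 1 either way. Rows that separate both controls from all exposed embryos, such as those of Dnaja2, Dnajb6 and Dnajc5, stand among many that vary between littermates, and exposed embryo 1 without NTD is the lowest in 34 rows.

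The 9 tested HSP70 probe sets come from 4 genes, Hspa2, Hspa8, Hspa9 and Hspa14, and had a median log2 fold change of -0.21. Of the 9, 7 lay below 0, mostly those of Hspa8 and Hspa9, beside 49.9% of all tested probe sets. Hspa9 encodes mortalin, the HSP70 of mitochondria that helps to pull imported proteins across the inner membrane. One of its probe sets had signals of 384.9 and 404.1 in control embryos 1 and 2, of 141.0, 253.6 and 251.8 in the embryos without NTD in their order, and of 216.6 and 132.1 in embryos 1 and 2 with NTD. All exposed embryos lay below both controls, and the means were 394.5 ± 13.6 (SD, n = 2) and 199 ± 59 (SD, n = 5). Its log2 fold change was -1.04 (standard error, SE, 0.28, 95% interval -1.65 to -0.43, adjusted p = 0.121). The other tested Hspa9 probe sets are brighter and had log2 fold changes of -0.24 and -0.22, so that the size of the difference depends on the probe set, and an untested one had 14.6 to 36.9. The brighter of them had control signals of 2562 and 2518 and exposed signals of 1968 to 2308, which do not overlap.

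Hspa8 encodes HSC70, the constitutive HSP70 of the cytosol, and has 4 tested probe sets. The 2 brightest had signals of 8583 to 12766 over the 7 embryos, with log2 fold changes of 0.01 and -0.14. The next had -0.21. The dimmest had signals of 274.9 and 163.4 in the control embryos, 111.3, 144.6 and 120.5 in the embryos without NTD and 97.7 and 170.9 in those with NTD, which overlap with control 2. Its log2 fold change was -0.74 (SE 0.29, adjusted p = 0.246), and -0.37 without control 1 or -1.12 without control 2. Hspa2, known for its role in sperm formation, had control signals of 189.1 and 159.7 and exposed signals of 158.4 to 259.2 (log2 fold change 0.21, adjusted p = 0.68). Hspa14, an HSP70 that works at the ribosome with Dnajc2, had 1179 and 1127 in the controls and 721.5 to 1257.5 in the exposed embryos (log2 fold change -0.17, adjusted p = 0.725). Dnajc2 had log2 fold changes of 0.12 and -0.17 at its 2 tested probe sets.

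The stress-inducible HSP70 genes were dim in all 7 embryos. Hspa1a had control signals of 42.65 and 29.5 and exposed signals of 30.7 to 56.4. The 3 probe sets of Hspa1b had 46.05 to 107.8 in the controls and 51.7 to 128.1 in the exposed embryos. None of the 4 passed the filter, whose threshold was a signal of 131 to 146 by array, so they were not tested. The same held for Hspa1l and Hspa12b, with signals of 2.44 to 6.23 and 35.9 to 113.9, and for heat shock factor Hsf2, with 5.49 to 20.7. A dim signal on this array does not show that a transcript is absent.

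The HSP110 proteins release nucleotide from HSP70, as does Hspbp1. The 7 tested probe sets of Hspa4, Hspa4l and Hsph1 had a median log2 fold change of -0.10 and a lowest adjusted p of 0.564. Hspa4 had an embryo that stood apart at 2 of its 3 probe sets. One of its probe sets had a signal of 1587 in exposed embryo 1 with NTD and of 636.1 to 898.0 in the other 6 embryos, and another had 835.3 in the same embryo and 296.1 to 574.2 in the others. Its brightest probe set did not single out that embryo, with 2131 there and 2213 in control 1. Hsph1, with an element after its start site as printed above, had log2 fold changes of -0.20 and 0.12 at its probe sets. Hspbp1 had signals of 431.2 and 553.2 in the control embryos, 570.3, 553.2 and 770.6 in the embryos without NTD and 829.4 and 805.2 in those with NTD. Exposed embryo 2 without NTD was within rounding of control 2 and the other exposed embryos lay above both controls, and the log2 fold change was 0.51 (SE 0.20, adjusted p = 0.242), with 0.69 without control 2 and 0.33 without control 1.

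The HSP90 and mitochondrial chaperonin genes differed little between the groups, with no log2 fold change beyond 0.29 either way. Hsp90aa1, the inducible HSP90 of the cytosol, had 3 probe sets with signals of 5057 to 11040 in the 7 embryos and log2 fold changes of -0.15, 0.01 and 0.05. Hsp90b1, the HSP90 of the endoplasmic reticulum, had 3698 and 2883 in the controls and 2477 to 2810.4 in the exposed embryos at one probe set, which do not overlap, with a log2 fold change of -0.29 (SE 0.12, adjusted p = 0.287), and -0.11 without control 1 or -0.47 without control 2. Its other probe set had -0.05. Hspd1, which encodes HSP60, had signals of 8095 and 8124 in the control embryos, 8017, 8373 and 8702.5 in the embryos without NTD and 8172 and 8919 in those with NTD. The log2 fold change of Hspd1 was 0.06 with a 95% interval of -0.14 to 0.25, inside 1.5-fold. Hspe1, which encodes the lid protein HSP10 and shares the printed element with Hspd1, had log2 fold changes of -0.14 and -0.02.

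The small HSPs lay above 0 at all 9 tested probe sets, with a median log2 fold change of 0.11, but that pattern rests on control 1. Without control 1, 4 of the 9 lay above 0 and the median was -0.00. With array quality weights, without exposed embryo 1 without NTD or without exposed embryo 2 without NTD, 7 of the 9 lay above 0, and after quantile normalization 8. Hspb2, a small HSP of heart and skeletal muscle, had signals of 156.4 and 199.5 in the control embryos, 262.9, 252.6 and 304.4 in the embryos without NTD and 273.7 and 276.9 in those with NTD. All exposed embryos lay above both controls. The means were 177.9 ± 30.45 (SD, n = 2) and 274.1 ± 19.5 (SD, n = 5), a log2 fold change of 0.63 (SE 0.17, 95% interval 0.26 to 1.00, adjusted p = 0.12). The summed heart muscle markers were also higher in every exposed embryo than in the controls, and their part in this difference was not tested. Hspb1, which encodes HSP25 and is strongly inducible, had 1327.5 and 1525 in the controls and 1420.5 to 2075 in the exposed embryos at its brighter probe set (log2 fold change 0.28, adjusted p = 0.396) and a log2 fold change of 0.02 at the other. Hspb11, which despite its name encodes a subunit of intraflagellar transport, had 349.3 and 382.7 in the controls and 317.8 to 490.4 in the exposed embryos (log2 fold change 0.12, adjusted p = 0.771).

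The CCT subunits, which fold actin and tubulin, were mostly close to equal between the groups. Over the 19 tested probe sets of 7 genes the median log2 fold change was 0.03, and the median coefficient of variation between exposed embryos was 10.8%, against 14.3% over the 109 members and 14.9% over all tested probe sets. The median of the mean signals was 4367 for the CCT probe sets, 739.5 for the members and 451.7 for all tested probe sets, and the part of signal in the variation was not tested. Cct8 had control signals of 3249 and 3265 and exposed signals of 3252 to 3733, and Cct5 had 6470 and 6085 in the controls and 5486 to 7195 in the exposed embryos. Cct7 was the exception at one of its probe sets, with 2695 in both controls, 1730, 1903 and 1765 in the embryos without NTD and 2216 and 2152 in those with NTD. All exposed embryos lay below the controls there (log2 fold change -0.47, SE 0.13, adjusted p = 0.133), while the brighter Cct7 probe set had 4071 and 4645 in the controls and 3767 to 5031 in the exposed embryos and a log2 fold change of 0.04. Cct3 had 2632 and 2530 in the controls and 1804 to 2575 in the exposed embryos at its probe set of lowest p (log2 fold change -0.31, adjusted p = 0.338), against -0.06 to 0.15 at the others. Cct4 had -0.34 at its probe set of lowest p and -0.06, -0.01, 0.14 and 0.38 at the others, and Cct6a had 0.03 at both of its probe sets.

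The DNAJ co-chaperones, which hand substrates to HSP70 and start its ATP cycle, made up 56 of the 109 tested members, from 33 genes. All exposed embryos were below both controls for 11 of the 56 (19.6%, beside 13.4% of all tested probe sets) and above both for 2 (3.57%, beside 11.4%). Both tested probe sets of Dnaja2 and of Dnajb1 are among the 11, and probe sets of 1 gene are not independent. Of the 56, 35 (62.5%, beside 49.9%) had log2 fold changes below 0 and the median was -0.10. The classes differed, with medians of -0.17 for class A, 0.06 for class B and -0.10 for class C. In class B, 8 of the 14 tested probe sets lay above 0. With 1 embryo left out, 32 to 37 of the 56 lay below 0, and the median ranged from -0.05 to -0.13. limma called none of them, and 4 with array quality weights (7.14%, beside 3.37% of all tested probe sets).

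Dnaja2, a cytosolic partner of HSC70, had the lowest p of all members. Its signals were 1241 and 1169 in the controls, 844.4, 789.2 and 868.9 in the embryos without NTD and 779.4 and 863.0 in those with NTD. The 5 exposed embryos lay close together and well below both controls. The means were 1205 ± 51.3 (SD, n = 2) and 829 ± 41.9 (SD, n = 5), a log2 fold change of -0.54 (SE 0.12, 95% interval -0.80 to -0.28, adjusted p = 0.0839). Its other probe set, with 559.4 and 583.2 in the controls and 423.8 to 553.2 in the exposed embryos, also did not overlap (log2 fold change -0.21). Dnaja1, an inducible partner of HSP70, had 2933 and 2768.5 in the controls and 1587, 2516, 2611, 2446 and 2562 in the exposed embryos, again below both controls (log2 fold change -0.30, adjusted p = 0.44), and its brighter probe set had -0.13. Dnaja3, which works in mitochondria with Hspa9, had log2 fold changes of 0.09 and -0.12.

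Dnajb1, the inducible HSP40, was the only gene with several tested probe sets of which each had an unadjusted p under 0.05. One had signals of 1215 and 946.2 in the control embryos, 751.6, 668.4 and 892.9 in the embryos without NTD and 815.1 and 817.4 in those with NTD. The other had 1443 and 1239 in the controls, 808.5, 1154 and 1021 in the embryos without NTD and 1052 and 1092.5 in those with NTD. At both, all exposed embryos were below both controls. The log2 fold changes of Dnajb1 were -0.45 (SE 0.15, adjusted p = 0.193, and -0.27 without control 1) and -0.39 (SE 0.15, adjusted p = 0.247), and probe sets of 1 gene read the same RNA, so they are not independent.

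Dnajb6 encodes a co-chaperone that keeps aggregation-prone proteins soluble, and its promoter holds the element printed above. One of its 3 tested probe sets had signals of 587.1 and 446.0 in the control embryos, 207.2, 302.1 and 239.8 in the embryos without NTD and 371.9 and 222.6 in those with NTD. The groups did not overlap, and the means were 516.5 ± 99.8 (SD, n = 2) and 268.7 ± 68 (SD, n = 5). The log2 fold change of this probe set was -0.96 (SE 0.23, 95% interval -1.48 to -0.45, adjusted p = 0.102). A second Dnajb6 probe set had 2042 and 1807 in the controls and 1601 to 1929 in the exposed embryos (log2 fold change -0.12), and the third had 815.0 and 816.7 in the controls and 757.3 to 1181 in the exposed embryos (log2 fold change 0.18). A Dnajb6 probe set below the filter had 86.8 and 113.1 in the controls and overlapped in the exposed embryos, with at most 158.6. Dnajb2, known from neurons, had control signals of 355.9 and 270.9 and exposed signals of 311.9 to 494.7 (log2 fold change 0.26, adjusted p = 0.536). Among co-chaperones of the endoplasmic reticulum other than Dnajc10, chosen after their values were seen, the log2 fold changes were 0.07 for Dnajb9, -0.25 for Dnajb11, 0.17 and 0.79 for Dnajc1 (SE 0.81 for the larger), and -0.21, -0.21, -0.07 and 0.16 for the 4 tested probe sets of Dnajc3.

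Dnajc10, Dnajc5 and Dnajc21 had the lowest p of the class C members, which share only the J domain. Dnajc10, a disulfide reductase of the endoplasmic reticulum, had signals of 674.7 and 592.0 in the control embryos, 438.3, 450.5 and 430.2 in the embryos without NTD and 391.4 and 423.1 in those with NTD. All exposed embryos were below both controls, with means of 633.3 ± 58.5 (SD, n = 2) and 426.7 ± 22.2 (SD, n = 5), or -0.57 as a log2 fold change (SE 0.13, adjusted p = 0.0945). At its other probe sets the log2 fold changes were -0.14 and -0.06. Dnajc5, the cysteine string protein of synaptic vesicles, had 406.1 and 387.6 in the controls, 221.2, 233.4 and 275.1 in the embryos without NTD and 300.7 and 246.8 in those with NTD. That probe set of Dnajc5 separated the groups (log2 fold change -0.64, SE 0.16, adjusted p = 0.109), while its other 3 tested ones had -0.14, -0.07 and -0.05. A probe set below the filter, with 147.2 and 139.4 in the controls and 71.55 to 119.1 in the exposed embryos, also did not overlap. The summed neural markers were lower in every exposed embryo as well, and their part was not tested.

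Dnajc21, a factor of ribosome maturation, differed in the other direction. Its signals were 408.0 and 282.3 in the controls, 501.7, 467.0 and 529.1 in the embryos without NTD and 484.7 and 598.1 in those with NTD. All exposed embryos were above both controls, with a log2 fold change of 0.60 (SE 0.17, 95% interval 0.23 to 0.97, adjusted p = 0.139). The log2 fold change of Dnajc21 was 0.87 without control 1 and 0.33 without control 2. Dnajc7, which links HSP70 and HSP90, had 2013 and 1859 in the controls and 1443 to 1749 in the exposed embryos, which do not overlap (log2 fold change -0.29, adjusted p = 0.269). Dnajc8, a splicing factor, had 4972 and 4932 in the controls and 4025 to 6420.4 in the exposed embryos, a log2 fold change of 0.05.

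**Figure D3:**
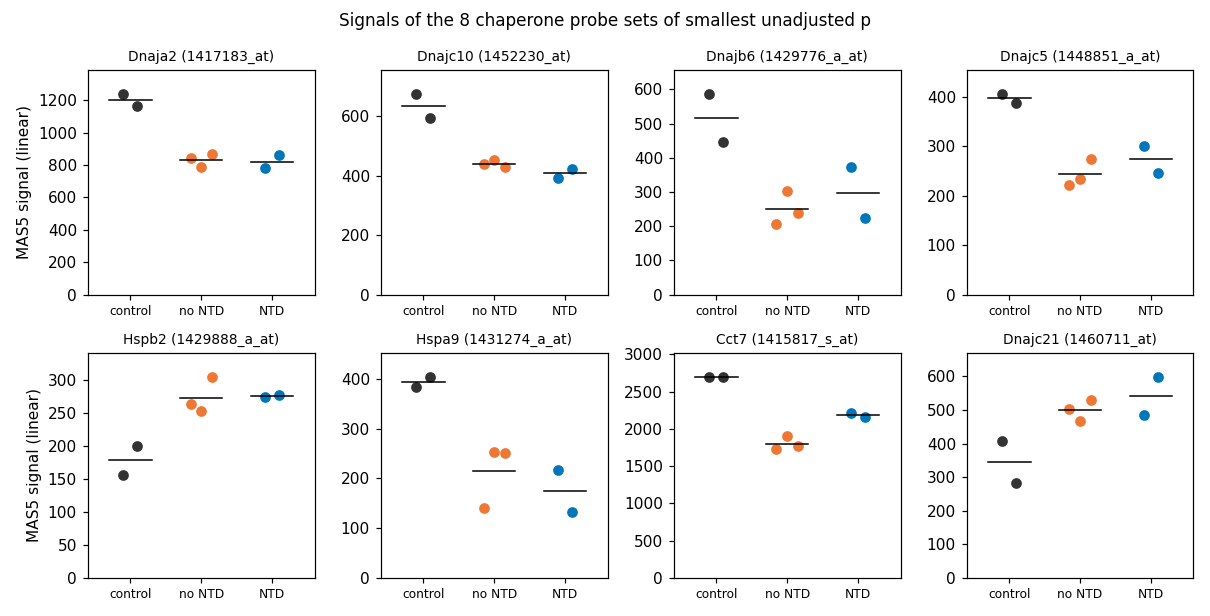
MAS5 signal on a linear axis from 0 for the 8 chaperone probe sets of smallest unadjusted p, by control embryos, exposed embryos without NTD (no NTD) and with NTD. Each point is an embryo and each bar a group mean, and in all 8 the 5 exposed embryos lie on one side of both controls, at an adjusted p of 0.0839 to 0.139 (limma).

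Probe sets of the same gene often differed. Of the 32 genes with several tested probe sets, 17 showed both signs of log2 fold change, and for 9 the highest and lowest differed by over 0.5. The median difference was 0.275. For Hspa9, Hspa8, Dnajb6, Dnajc5, Dnajc10 and Cct7 the probe set with the lowest p was the tested one of lowest signal. For Dnaja2, Hsp90b1 and Hspb1 it was the brighter one, and the other genes were not counted in this way. Signals of different probe sets depend on their probes and do not compare transcript levels. Probe sets of 1 gene can read different ends or splice forms of its transcripts, and 22 of the 109 tested members carry the suffix _x_at or _s_at, by which the maker of the array marks probes that match several sequences. The values of such probe sets, among them those of Hspa8, Cct2, Cct3 and Cct4, may include related genes and pseudogenes. The Cct7 probe set that lay below the controls in all exposed embryos is also among them.

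**Figure D4:**
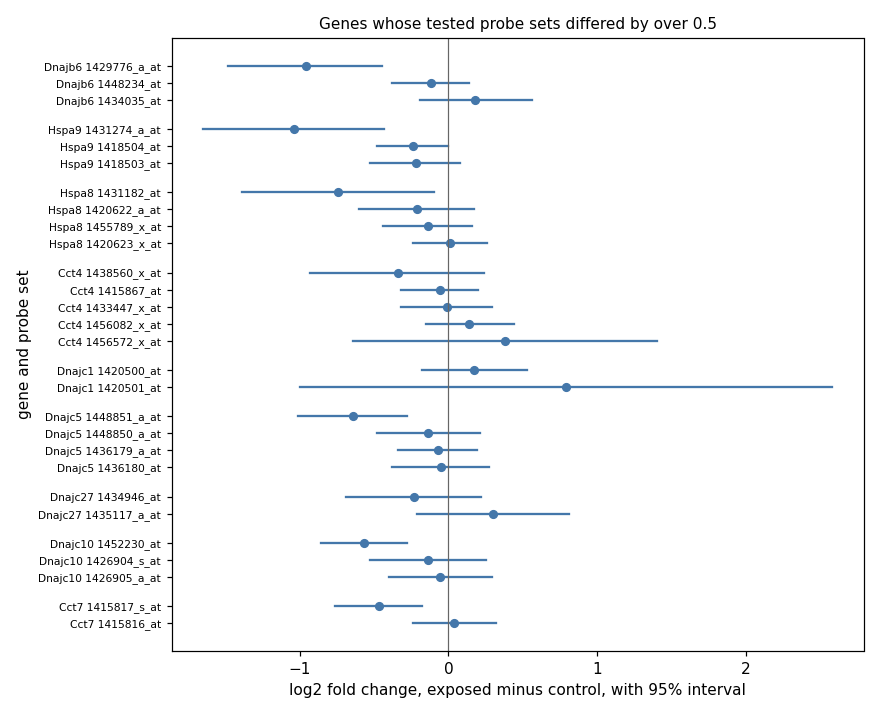
Log2 fold change of exposed minus control embryos with its 95% interval on the horizontal axis, for each tested probe set of the 9 genes whose probe sets differed by over 0.5. Hspa8, Dnajb6, Dnajc5, Dnajc10 and Cct7 each have 1 probe set whose interval lies clear of 0, and Hspa9 has 2, of which one ends at -0.00.

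Genes known to be induced by heat were also examined as a list. Most of its tested probe sets are members, and the others are also in the list of partners below, so the counts are not independent. Of the 20 textbook targets of HSF1, 18 were on the array and 16 had tested probe sets. None of the 28 tested probe sets was called by limma, and the median log2 fold change was -0.01 (0.00 over all tested probe sets). At an unadjusted p under 0.05, 1 was higher (3.57%, beside 7.63% of all) and 3 were lower (10.7%, beside 8.52%). The 3 lower ones, of Dnajb1 and Hspa8, were already counted among the members, and the higher one, of Serpinh1, is counted again among the partners. The probe sets of lowest p in the list besides Dnajb1 and Hspa8 belonged to Serpinh1, the collagen chaperone HSP47, with 2645 and 2468 in the controls and 3113 to 4031 in the exposed embryos (log2 fold change 0.43, adjusted p = 0.142), while 0.14 was measured at its other probe set. Of 52 partners and related chaperones outside the rule for symbols, which included Tcp1 of CCT, Hspa5, Hyou1, Trap1, BAG proteins, prefoldins and mitochondrial proteases, 47 genes with 68 probe sets were tested. limma called none of the 68, and 1 of them with array quality weights, beside 3.37% of all tested probe sets. That probe set, of Txndc9, had an adjusted p of 0.0271 with weights, and of at most 0.243 under the limma alternatives that kept both controls. At an unadjusted p under 0.05, 3 were higher and 3 lower (4.41% each, beside 7.63% and 8.52%), and the median was 0.01. Their lowest adjusted p, 0.117, was that of Txndc9, a CCT-binding protein, with a log2 fold change of 0.51 at that probe set and of -0.49 at its other. Hsbp1, a binding partner of heat shock factors, had -0.46 (adjusted p = 0.19, and -0.21 without control 2 or -0.70 without control 1) and -0.20. Tcp1 had 0.08, and Hspa5, the HSP70 of the endoplasmic reticulum, -0.07 and -0.29.

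**Figure D5:**
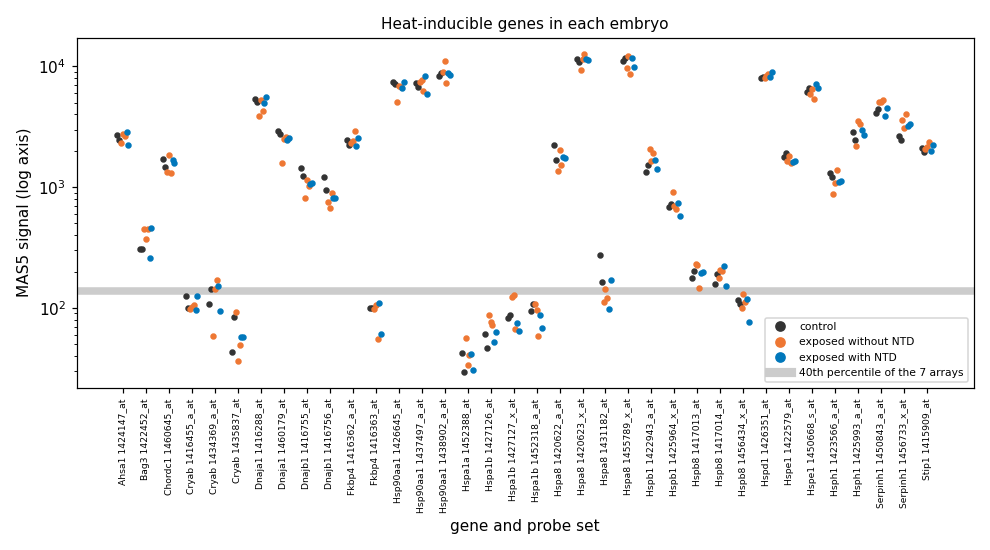
MAS5 signal on a log axis for each probe set of the heat-inducible genes, with 1 point per embryo coloured by group. The grey band is the 40th percentile of the 7 arrays, a signal of 131 to 146, and all probe sets of Hspa1a and Hspa1b lie below it in every embryo.

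No chaperone probe set passed the test between exposed embryos with and without NTD. With limma on 3 groups, 0 of the 109 were called (0 of all 14554, 0%), and the lowest adjusted p of a member was 0.999. At an unadjusted p under 0.05, 2 members were higher in embryos with NTD (1.83%, beside 1.64% of all tested probe sets) and 1 was lower (0.917%, beside 1.38%). The 2 were the Cct7 probe set described above (log2 difference 0.28, SE 0.12) and Hspa14, with 721.5, 1113 and 911.4 in the embryos without NTD and 1239 and 1257.5 in those with NTD (log2 difference 0.47, SE 0.18). The lower one was a Dnajc5 probe set with 860.9, 758.9 and 747.6 without NTD and 639.0 and 597.9 with NTD (log2 difference -0.35, SE 0.14).

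Other tests called more. With array quality weights, which gave exposed embryo 1 without NTD a weight of 0.427 and each control 1.48, limma called 6 of the 109 members (5.5%, beside 3.37% of all tested probe sets). Hspb2 was higher, at an adjusted p of 0.045, and Dnaja2, Dnajc10, Hspa9, Dnajb6 and Dnajc5 were lower, at adjusted p of 0.0229, 0.0267, 0.0388, 0.0406 and 0.0406. Over the limma alternatives the highest adjusted p of these 6 was 0.585 for Dnaja2, 0.593 for Hspa9, 0.616 for Dnajc10 and Dnajc5, 0.63 for Dnajb6 and 0.691 for Hspb2, each without control 1, and 0.205 to 0.248 with both controls kept. The regularized Cyber-T statistic, after Benjamini-Hochberg adjustment, called 11 (10.1%, beside 8.96% of all), of which Hspb2, Hspbp1 and Dnajc21 were higher and 8 were lower. By criteria like those of the study's methods, an unadjusted p under 0.05 in both the methods' t-test and Cyber-T and a change over 1.5-fold, 0 members were higher, beside 1.45% of all tested probe sets. By the same criteria 3 were lower (2.75%, beside 2.89% of all), and these were the lowest-p probe sets of Dnajb6, Hspa9 and Dnajc5.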

How the data were processed

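RNA of 7 whole FVB embryos was measured on 1 Affymetrix 430A 2.0 array each. The values deposited by the authors are signal intensities on a linear scale, computed and scaled per array with MAS5 (no version stated). Symbols came from the array annotation.

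The fit (limma 3.58.1, R 4.3.3, trended prior variance) ran on log2 signals, floored at 1, of the 14554 probe sets that reached the 40th percentile on at least 2 arrays. All 5 exposed embryos formed 1 group against the 2 controls, as in the study's methods, and embryos with and without NTD in a fit of 3 groups. All tests were two-sided, and the limma fit of exposed against control embryos was tested on simulated data.

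The chaperone genes, the lists and the rule for naming genes were chosen with earlier results of these data known. The rule named, in each class, the 3 genes of smallest p and the gene of highest signal, genes with probe sets of opposite sign over 1 apart, 3 members by p in the NTD comparison, and 3 genes of each list. A gene is given first by its probe set of smallest p. Other genes with values (Hspa1a, Hspa1b, Hspa1l, Hspa12b, Cct5, Cct8, Dnajc2, Dnajc7, Tcp1, Hspa5 and the untested probe sets) were chosen after their values were seen. Replicate numbers only name embryos and pair none. Other normalizations, floors, filters, weights, groupings and tests were tried, and each embryo was left out in turn. Python 3.11.15 with pandas 2.3.3, NumPy 2.4.6 and Matplotlib 3.10.9, and statmod 1.5.0, were also used.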

Additional observations from a re-analysis of the deposited data

Results flagged for a closer look

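In 2 named members a single exposed embryo lay far from the other 4, by the gap to its nearest neighbour divided by the range of the 5. Hsp90aa1, at the probe set with 5057 in exposed embryo 1 without NTD and 6662 to 7399 in the others, had a gap of 0.724 of the range. Dnaja1, at the probe set with 1587 in the same embryo and 2446 to 2611 in the others, had 0.869. Chance flags about 1 in 20 such groups. Of the 109 tested members 8 were flagged in this way (7.34%), and 6.62% of all tested probe sets.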

How the results depend on the processing

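The count of called members stayed at 0 under every limma alternative except array quality weights, with 6, and was 11 with Cyber-T. Leaving out 1 exposed embryo gave 3 to 4 members higher and 10 to 12 lower at an unadjusted p under 0.05 (limma). All remaining exposed embryos lay above both controls for 6 to 10 members and below both for 17 to 18. Leaving out an embryo can only keep or raise counts of this kind, so they do not check the main counts. Without control 2, 18 members lay above control 1 (16.5%, beside 23.4% of all tested probe sets) and 26 below it (23.9%, beside 21.2%). For the other counts of this paragraph no share over all tested probe sets is at hand, and they are not read as a trait of the members. With 1 probe set per gene, 5 members were lower at an unadjusted p under 0.05, 7 lay below both controls and the median was 0.042. With the replicate number as a block, which pairs no embryos by the labels, 0 were called, 2 were higher, 9 were lower and the median was -0.033. Same-numbered embryos deviated together with correlations of -0.248 to 0.026.

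Among 636 values of 32 named probe sets under the alternatives, 607 kept their direction and side of the threshold, 20 passed it only under Cyber-T (13) or weights (7), and 9 near 0 changed sign. After quantile normalization Cct6a had -0.01, Dnajc8 -0.00 and Hspd1 -0.05. With the replicate block Dnajc8 had -0.03, and with only exposed embryos without NTD Dnaja3 had -0.01. With 1 embryo left out Cct6a ranged from -0.04 to 0.11 (also -0.00), Dnaja3 from -0.01 to 0.19 and Dnajc8 from -0.03 to 0.14. The cause was not tested. No probe set has several symbols that all match, so that alternative gave no value. Between NTD and no NTD, limma kept 0 calls under each alternative run.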
